A study of Mus musculus with 50 samples.

Results

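The genes described here are 36 lysosomal genes: the acid hydrolases and cathepsins of the lysosome, proteins of its membrane, and the regulators Tfeb and Grn. They were taken by name from a list that uses no measured value as a criterion but was drawn up with earlier results of these data known, and all 36 were found once among the 48526 genes of the count table. RNA of sorted microglia, the resident macrophages of the brain, was sequenced in 50 libraries of 14 groups. Libraries are named by group and by the number in their label, and some numbers recur in other groups. Knockout mice carried loxP-flanked Hdac1 and Hdac2, the genes of 2 class I histone deacetylases, with a Cre recombinase under the control of Cx3cr1, and the study asked how losing both enzymes changes microglia at different ages. Controls carried the same loxP alleles without Cre, so an effect of the deletions and an effect of carrying Cre cannot be told apart.

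Constitutive knockouts (HDAC1/2-loxP/loxP CX3CR1-Cre, untreated) gave 3 libraries at birth (P0), 2 at 2 weeks (14 days) and 3 at 6 weeks (45 days), and their untreated HDAC1/2-loxP/loxP controls gave 4 at each age. Inducible knockouts (Hdac1/2 fl/fl with Cx3cr1-CreERT2, tamoxifen) gave 3 libraries on embryonic day 16 (E16) and 4 each at P0, 2 weeks and 6 weeks. Their HDAC1/2-loxP/loxP controls gave 3 libraries at P0 and 4 at each other age. Dams of the inducible groups, controls included, received 3 mg tamoxifen on embryonic day 13, so the inducible deletion was started before birth. Cx3cr1 is also expressed by other macrophages and by monocytes, so the driver is not confined to microglia. The labels do not say whether a library came from 1 animal or from a pool, and p-values here measure the spread between libraries.

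Lysosomes break down material that a cell takes up or recycles. Acid hydrolases are made in the secretory pathway, tagged with mannose 6-phosphate and delivered through endosomes, and an acid pH kept by the vacuolar proton pump lets them work. In microglia this machinery digests engulfed synapses, myelin and dying cells, and loss of single members causes lysosomal storage disease of the brain.

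Libraries held 11050277 to 29651179 counts. Levels are in CPM, a gene's count over the library's total, scaled to the same sum in each library, and where levels of different genes are compared they are given per kilobase of the deposited gene length as well (RPKM). A gene was called, and is said to rise or fall, where edgeR's quasi-likelihood test gave a Benjamini-Hochberg adjusted p below 0.05 over all genes tested. The value after ± is the standard error of a log2 change unless it is named as an SD. Hdac2 fell in 4 of the 7 knockout comparisons (constitutive at 6 weeks, inducible at P0, 2 weeks and 6 weeks), and Hdac1 was called in none of them. The libraries labelled P0 knockout No_68 and 6-week knockout No_380 (constitutive) had Hdac1 at 35.7 and 92.2 CPM, above all their controls. Hdac2 was not below the controls in the libraries labelled E16 knockout No_1 (316 CPM), constitutive P0 knockouts No_68 and No_76 (190.5 and 137 CPM) and constitutive 2-week knockout No_89 (70.1 CPM). Which exons the loxP sites flank is not in the labels, and counts here cover whole genes. Knockout in what follows is the label. Summed over 17 microglia marker genes, control libraries held 24335 to 79121 CPM, and E16 knockout No_1 (10850 CPM) and the constitutive P0 knockouts (3229 to 7191 CPM) held far less. Cx3cr1, the gene that drives Cre, is among the 17, and each knockout library held less of it than each control of its model and age. All sums, counts and ratios of the microglia markers include it. In bulk RNA, fewer cells of a type and less RNA per cell cannot be told apart.

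The promoters of several of these genes carry the E-box CACGTG, the core of the element bound by TFEB, the transcription factor that directs lysosomal gene expression. RefSeq promoters (GRCm38.p6, 250 bases before to 50 bases after a gene's start) were at hand for 32 of the 36 genes. CACGTG, which reads the same on both strands, was in at least 1 promoter of 11 of these 32 genes (34.4%), against 2187 of 27025 genes of the same table (8.09%, and 7.15% of all promoters of this length). The longer palindrome TCACGTGA, which contains CACGTG, was in 4 of them (Ctsa, Ctsd, Gla and Mcoln1), or 12.5% against 1.12% of all genes. A 10-letter palindrome, TCACGTGA with G before and C after it, was in 0 of the 32 genes, against 0.37% of all genes. At so low a share, 0 of 32 cannot tell these genes from all genes. A match describes the letters of these windows and is not a binding site. Shown here are the 4 genes with TCACGTGA, and Lamp1, which had 4 copies of CACGTG, at -61, -45, -28 and -15 from its start, the most of the 32. Matches are in capitals, each sequence runs 5′ to 3′ along its gene, and the coordinates are those of GRCm38.p6.
Lamp1 (chr8:13159080-13159161, plus strand): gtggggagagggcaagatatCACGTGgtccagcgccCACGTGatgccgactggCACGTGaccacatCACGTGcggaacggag
Mcoln1 (chr8:3500428-3500500, plus strand): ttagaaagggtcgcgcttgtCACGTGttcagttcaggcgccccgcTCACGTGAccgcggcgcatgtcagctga
Ctsa (chr2:164833740-164833794, plus strand): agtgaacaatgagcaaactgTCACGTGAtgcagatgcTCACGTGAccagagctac
Gla (chrX:134601173-134601253, minus strand): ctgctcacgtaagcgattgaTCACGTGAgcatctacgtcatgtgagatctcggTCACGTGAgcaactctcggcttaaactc
Ctsd (chr7:142387899-142387946, minus strand): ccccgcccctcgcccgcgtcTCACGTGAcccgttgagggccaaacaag
Ctsd had a second CACGTG at -245 from its start, and Glb1, Gaa, Sgsh, Lgmn, Ctsl and Ctsf had 1 CACGTG each. GAGGAAGT, a motif of the myeloid factor PU.1 searched on both strands, was in 4 of the 32 genes (Ctsc, Ctss, Gla and Gusb), or 12.5% against 3.69% of all genes. As a description of the knockout changes reported further on, the 11 genes with CACGTG and the 21 without had median log2 changes of -1.87 and -1.69 in constitutive P0 knockouts, -0.038 and -0.11 at 2 weeks, and 0.19 and 0.044 at 6 weeks. In inducible P0 knockouts the medians were -0.099 with and -0.25 without CACGTG. For TCACGTGA they were -1.52 in the 4 genes with it and -1.78 in the 28 without it in constitutive P0 knockouts.

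In control microglia the leading members were proteases. Summed over the 36 genes, control libraries held 38064 to 51797 CPM. Per kilobase of gene length, cathepsin S (Ctss), an elastin- and antigen-processing cysteine protease that works at neutral pH too, stood highest in newborn constitutive controls at 2955 ± 200.2 RPKM (SD, n = 4). The aspartic protease Ctsd followed at 2209 ± 302 RPKM. Legumain (Lgmn), the asparaginyl endopeptidase that matures other cathepsins, stood at 1801 ± 223 RPKM and the cysteine protease Ctsb at 1579 ± 279 RPKM. Lgmn and Ctsb, and Ctsz at 1538 ± 160.5 RPKM, did not differ beyond their spread. For 9 of the 36 genes, Ctsb among them, the deposited length differs from the exon bases of the annotation used here. At the low end stood Sgsh (2.15 ± 0.678 RPKM), a heparan sulfatase, and Ctsk (1.04 ± 0.349 RPKM), the collagen-degrading cathepsin of osteoclasts.

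Several members changed strongly between birth and 2 weeks in controls, in both models. Newborns were decapitated and older animals perfused before sorting, so age and isolation cannot be told apart. Of the 36 genes, 16 rose and 7 fell in constitutive controls, where 26.7% and 36.6% of the 16346 genes tested rose and fell (63.3% in all), and 12 rose and 12 fell in inducible controls, where 21.9% and 32.7% of 16321 did. All 12 that rose in the inducible controls also rose in the constitutive ones, and all 7 that fell in the constitutive controls also fell in the inducible ones. These controls share no library. Over all genes tested in both, 84.2% of those that rose in the inducible controls rose in the constitutive ones. Of those that fell in the constitutive controls, 83.6% fell in the inducible ones. Scaling by library totals moved the median of all genes by -0.29 and -0.22 on the log2 scale and gave 11 rises with 13 falls in constitutive controls (2619 rises and 7605 falls over all genes) and 8 rises with 16 falls in inducible controls (2282 and 6506 over all genes).

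Cysteine cathepsins went both ways. Ctsf, a lysosomal cysteine protease mutated in a human ceroid lipofuscinosis, held 538, 649, 579.7 and 602 CPM at 2 weeks in constitutive controls, against 309.7, 210.3, 309 and 289 CPM at P0 (log2 change 1.37 ± 0.14, adjusted p = 9.46e-07). Its 2-week libraries all lay above those of P0, as they did in the inducible controls (log2 change 1.04 ± 0.12). Ctss held 6068, 6839, 6635 and 5766 CPM at 2 weeks in inducible controls, against 2666, 2604 and 4202 CPM at P0 (log2 change 1.22 ± 0.16, adjusted p = 5.9e-05), with no overlap. Ctsb (chromosome 14, 63122462 to 63145923, plus strand, GRCm38) held 2799, 3108, 3015 and 3228 CPM at 2 weeks in constitutive controls, against 8877, 5706, 7481 and 7861 CPM at P0 (log2 change -1.01 ± 0.14, adjusted p = 1.61e-05). Its 2-week libraries lay far below those of P0. Ctsk fell in both models (log2 changes -1.78 ± 0.45 and -3.02 ± 0.56) but rests on 5 to 8 counts a library in the 2-week constitutive controls and 3 to 5 in the inducible ones.

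Among the other classes, the sulfatase Arsb, which acts on dermatan and chondroitin sulfate, held 905, 1243, 1001 and 1323 CPM at 2 weeks in constitutive controls, against 516, 357, 504 and 537 CPM at P0 (log2 change 1.51 ± 0.16, adjusted p = 2.62e-06). In the annotation used here Arsb shares 32.3% of its exon bases with a gene on the opposite strand. Its deposited length (3989 bases) is shorter than its exon bases in that annotation (6037), so whether the shared bases were counted is not known. Reads from shared bases cannot be told apart, since the cDNA kit used does not keep strand. The mannosidase Man2b1 (log2 change 1.07 ± 0.15) and Laptm5, a lysosomal membrane protein of haematopoietic cells (1.000 ± 0.13), also rose. Cd63, a tetraspanin of late endosomes and exosomes, held 115, 103, 120.4 and 104 CPM at 2 weeks, against 363, 300.5, 419.9 and 362 CPM at P0 (log2 change -1.42 ± 0.12, adjusted p = 2.32e-07). Gla, alpha-galactosidase A, which trims the glycolipid globotriaosylceramide, fell too, with a log2 change of -1.72 ± 0.21 in constitutive and -1.91 ± 0.26 in inducible controls. The 2-week libraries lay below those of P0 for both genes in both models.

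Between 2 and 6 weeks a smaller set changed, 10 up and 6 down of the 35 tested in constitutive controls (8.80% and 8.93% of 13892 genes) and 6 up and 9 down in inducible controls (8.13% and 8.98% of 14025 genes). With library totals in place of TMM scaling the inducible split became 9 up and 6 down (1528 and 891 over all genes, in place of 1140 and 1260). Sgsh held 15.9, 16, 13.5 and 18 CPM at 6 weeks in constitutive controls, against 6.81, 8.86, 5.27 and 5.2 CPM at 2 weeks (log2 change 1.24 ± 0.19, adjusted p = 0.000424), and its log2 change in inducible controls was 1.61 ± 0.24. The aminopeptidase Ctsh held 1087, 896, 907 and 852 CPM at 6 weeks, against 490.3, 521, 486 and 542 CPM at 2 weeks (log2 change 0.84 ± 0.10, adjusted p = 2.96e-05). Libraries of the 2 ages did not overlap for either gene. The dipeptidyl peptidase Ctsc (0.73 ± 0.10 and 0.80 ± 0.11) and the acid sphingomyelinase Smpd1 (0.63 ± 0.11 and 0.51 ± 0.12) rose in both models. Arsb (-1.56 ± 0.19 and -0.72 ± 0.12), Ctsf (-0.57 ± 0.10 and -0.69 ± 0.10) and Gpr137b (-0.40 ± 0.12 and -0.52 ± 0.10) fell in both. Lamp1, a heavily glycosylated protein of the lysosomal membrane, fell with log2 changes of -0.44 ± 0.084 and -0.27 ± 0.081. Between E16 and P0 none of the 36 genes was called in inducible controls, where 0.0464% of the 17251 genes tested rose and 0.0116% fell (0.058% in all). With edgeR 5 of the 36 had an unadjusted p below 0.05, beside 1875 of the 17251 genes tested. DESeq2 called 1 of the 36 and 412 over all genes.

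**Figure D1:**
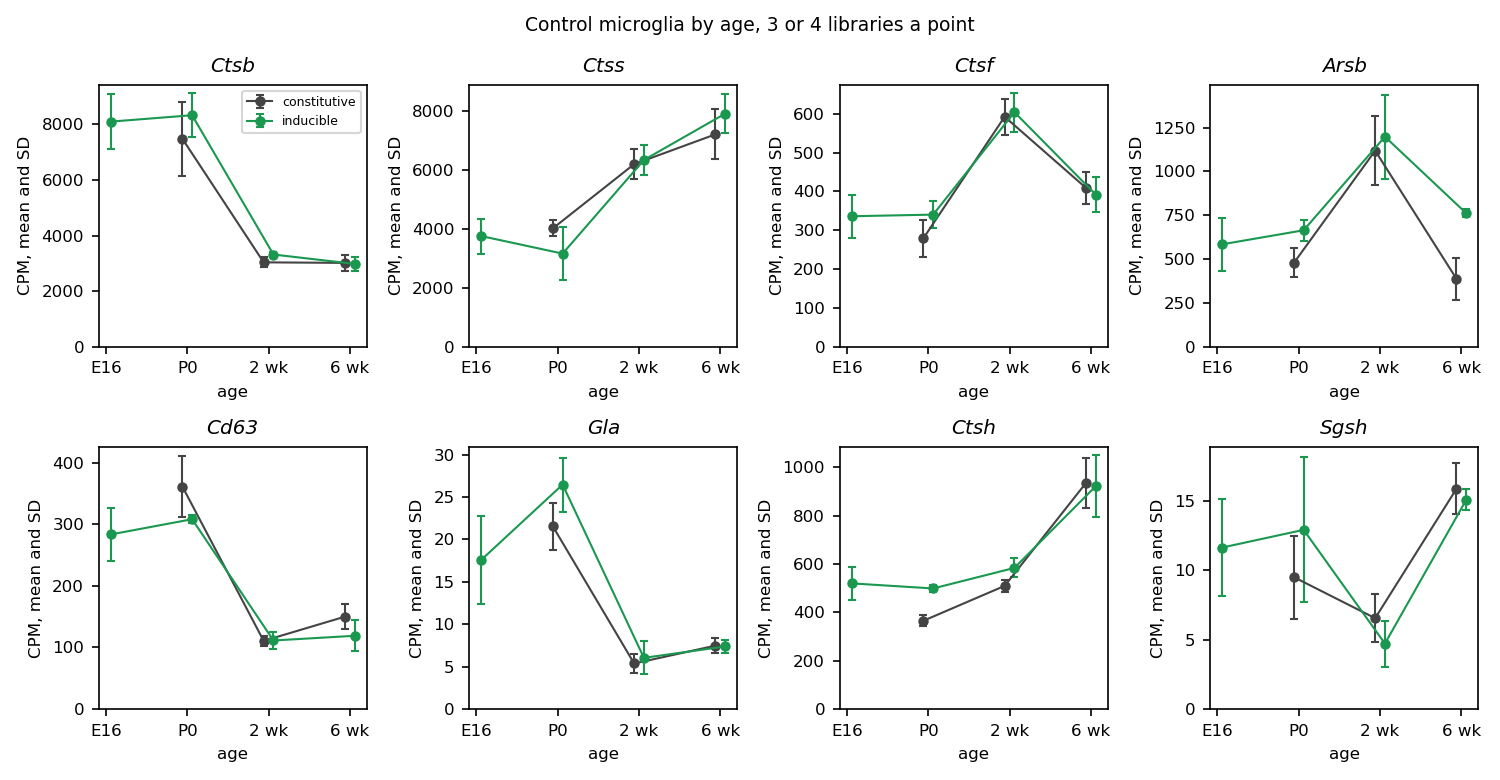
Mean CPM and SD of 8 lysosomal genes in control microglia at each age, 3 or 4 libraries a point, constitutive controls in grey and inducible controls in green. Ctsb, Cd63 and Gla drop between P0 and 2 weeks, Ctsf and Arsb peak at 2 weeks, and Ctsh and Sgsh are highest at 6 weeks in both models.

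In newborn constitutive knockouts nearly the whole set was low. Of the 36 genes, 32 fell and 1 rose, beside 20.2% and 21.4% of the 18411 genes tested, and the median log2 change was -1.96 against 0.043 over all genes tested. Every knockout library lay below every control in CPM for 28 of the genes, and the share of all genes that did so was not computed. Together the 36 genes held 14920.5, 9047 and 9918 CPM in knockouts No_68, No_73 and No_76, against 38064 to 50850 CPM in controls. With library totals in place of TMM the median of all genes moved by 0.36, all genes split into 6427 rises and 2037 falls in place of 3942 and 3726, and 28 of the 36 genes fell and 1 rose. Without the library labelled knockout No_68, 31 fell and 1 rose.

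**Figure D2:**
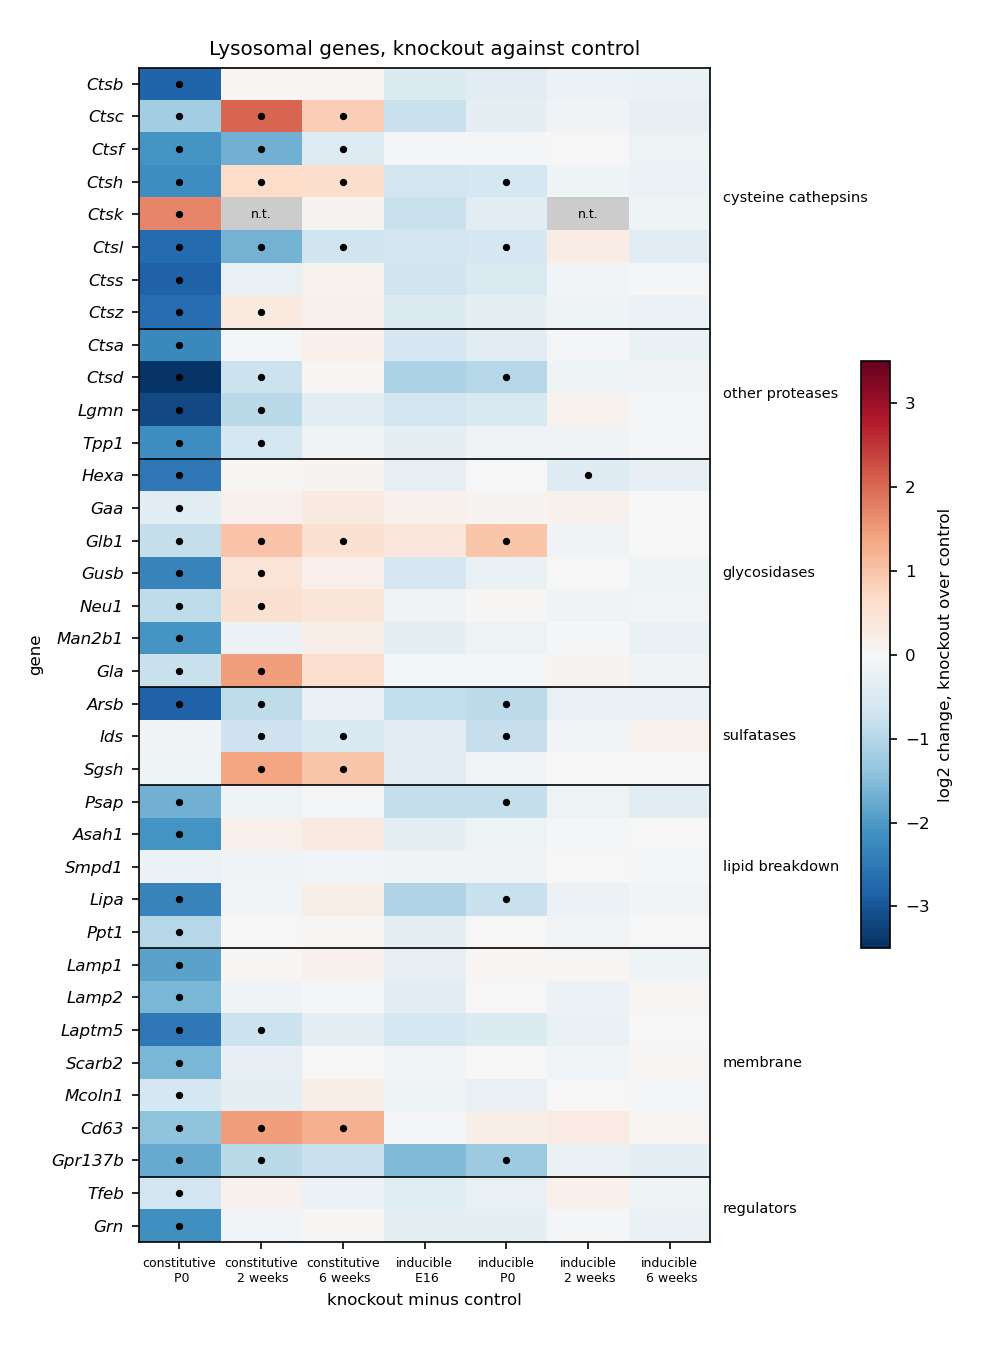
Log2 change of each of the 36 genes, knockout over control, in the 7 knockout comparisons, ordered by role. A black dot marks a gene that passed the test, n.t. a gene left out by the low-count filter. The first column (constitutive P0) is blue for all genes but Ctsk, the next 2 hold both colours, and the inducible columns are paler.

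Proteases had the largest falls. Ctsd (chromosome 7, 142375911 to 142388038, minus strand), the main aspartic protease of lysosomes, held 1112, 328 and 393 CPM in P0 constitutive knockouts, against 5476, 4131, 5568 and 5601 CPM in controls, a 10.9-fold lower level (log2 change -3.44 ± 0.42, adjusted p = 0.000115). Knockout No_68 was the highest of the 3, far below the lowest control, and without it the log2 change was -4.22. Ctsd shares 34.4% of its exon bases with the predicted gene Gm49369. Lgmn held 935, 390.2 and 481 CPM in knockouts, against 4271, 3523, 4782 and 4161 CPM in controls (log2 change -3.15 ± 0.31, adjusted p = 3.73e-05). Ctss (chromosome 3, 95526786 to 95556403, plus strand) held 1037, 459.8 and 656 CPM in knockouts, against 3958, 3740.2, 4389 and 3961 CPM in controls (log2 change -2.84 ± 0.27, adjusted p = 3.19e-05). For both genes the groups were well apart, with knockout No_68 again the highest of its group. Tpp1, the tripeptidyl peptidase lost in a form of Batten disease, and Ctsa, the carboxypeptidase that protects Neu1 and Glb1, had log2 changes of -2.17 ± 0.18 and -2.26 ± 0.20. The other cysteine cathepsins that fell, Ctsb, Ctsl, Ctsz, Ctsh, Ctsf and Ctsc, ranged from -2.81 to -1.21.

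Ctsk was the exception among the cathepsins. It held 7.59, 4.5 and 7.56 CPM in knockouts, against 1.67, 2.27, 1.31 and 1.05 CPM in controls (log2 change 1.70 ± 0.37, adjusted p = 0.00402). Each knockout library lay above each control, on 66 to 129 counts against 13 to 36.

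All 7 glycosidases fell, with a median log2 change of -0.88. Hexa, the alpha subunit of beta-hexosaminidase, and Gusb, the beta-glucuronidase, changed most (-2.50 ± 0.26 and -2.33 ± 0.21), followed by Man2b1 (-2.05 ± 0.21). Glb1, the beta-galactosidase, held 77.4, 65.8 and 70.4 CPM in knockouts, against 105, 79.4, 106 and 105 CPM in controls, all lower but close (log2 change -0.84 ± 0.16, adjusted p = 0.00161). The sialidase Neu1 had -0.88 ± 0.15 and Gla -0.77 ± 0.21. Gaa, which degrades glycogen, held 187, 165 and 134 CPM in knockouts and 180.1, 151, 172 and 158 CPM in controls, values that overlap, and its call (-0.39 ± 0.15, adjusted p = 0.0495) was lost when any of 5 single libraries (controls No_69, No_71 and No_74, knockouts No_73 and No_76) was left out, with adjusted p values of 0.0715 to 0.163.

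Sulfatases parted from one another. Arsb held 174, 47.9 and 38.3 CPM in P0 constitutive knockouts, against 516, 357, 504 and 537 CPM in controls (log2 change -2.82 ± 0.47, adjusted p = 0.000862, and -3.85 without knockout No_68). The groups did not overlap. Ids, the iduronate sulfatase, held 114, 92.8 and 82.5 CPM in knockouts and 87.6, 84.9, 84.8 and 73.5 CPM in controls (log2 change -0.14 ± 0.14, adjusted p = 0.467). Sgsh held 10.5, 11 and 11.7 CPM in knockouts and 13.3, 6.24, 10.0 and 8.36 CPM in controls (log2 change -0.15 ± 0.29, adjusted p = 0.713). Neither passed the test, and both genes' ranges overlapped between the groups. CPM values are over library totals and the log2 changes are TMM-scaled, so a gene with like or higher CPM in the knockouts can have a log2 change below 0. With library totals the direction turned for Ids (0.22, adjusted p = 0.19), Sgsh (0.23, adjusted p = 0.526) and Smpd1 (0.17, adjusted p = 0.345), none of them called under either scaling, and the calls of Gaa (-0.027, adjusted p = 0.878), Gla (-0.41, adjusted p = 0.114), Mcoln1 (-0.26, adjusted p = 0.103) and Tfeb (-0.32, adjusted p = 0.198) were lost.

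Of the 5 lipid-degrading members 4 fell: Lipa, the acid lipase that releases cholesterol (-2.33 ± 0.14), Asah1, the acid ceramidase (-2.08 ± 0.17), Psap, the precursor of the saposins (-1.69 ± 0.23), and Ppt1, which removes palmitate from proteins (-0.99 ± 0.15). Smpd1 held 56.9, 61.9 and 56.7 CPM in knockouts and 54.7, 58.2, 53.5 and 41.9 CPM in controls (-0.19 ± 0.14, adjusted p = 0.297). It was called in none of the 7 knockout comparisons, alone among the 36 genes. All 7 membrane proteins fell, most of all Laptm5 (-2.50 ± 0.26) and Lamp1 (-1.87 ± 0.18), then Gpr137b (-1.77 ± 0.22), a multipass protein that tunes mTORC1 at the lysosome, Lamp2, a receptor of chaperone-mediated autophagy (-1.61 ± 0.18), the glucocerebrosidase receptor Scarb2 (-1.60 ± 0.13), Cd63 (-1.41 ± 0.18) and the calcium channel Mcoln1 (-0.63 ± 0.13). Grn, whose product progranulin is cut into granulins in lysosomes (-2.15 ± 0.30), and Tfeb (-0.68 ± 0.21) fell as well. The calls of Gla and Tfeb were lost without single libraries (adjusted p up to 0.055 for Gla without knockout No_68 or No_73, and up to 0.095 for Tfeb without control No_71 or knockout No_73 or No_76).

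Markers of several other cell types moved with these falls. All 17 microglia markers fell and the 15 neutrophil markers all rose, and 11 of 12 monocyte, 11 of 12 neuron, 10 of 10 astrocyte and 7 of 8 erythroid markers rose. Neutrophil markers summed to 7948 to 12203 CPM in knockouts, against 727 to 1711 CPM in controls, and no marker of that list was at 0. Border macrophage markers overlapped, with sums of 2333 to 3682 CPM in knockouts and 2774 to 4061 CPM in controls. Lymphocyte markers overlapped too, at 98.7 to 142 CPM and 93.3 to 119 CPM. The summed level of the 36 genes was 2.07, 2.80 and 2.33 times that of the microglia markers in knockouts No_68, No_73 and No_76, and 1.41, 1.23, 1.32 and 1.36 times in controls No_69, No_70, No_71 and No_74. The part of these cells in the falls was not tested.

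**Figure D3:**
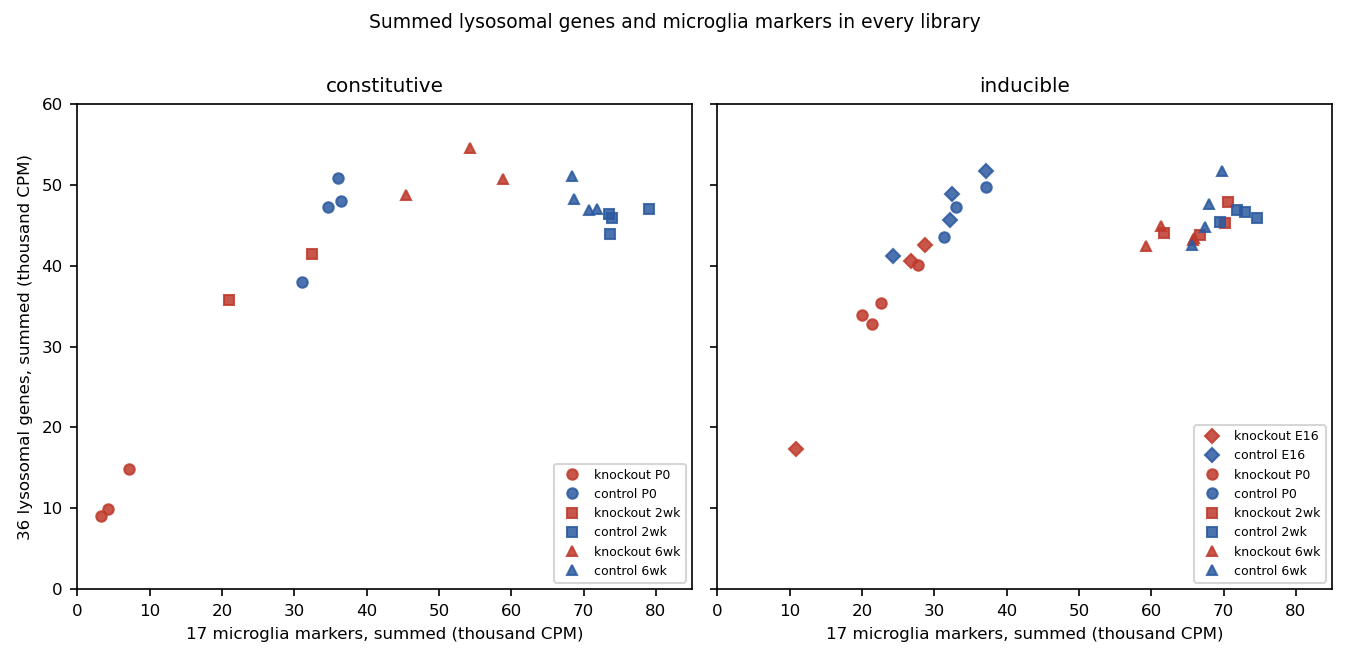
Summed CPM of the 36 lysosomal genes against summed CPM of 17 microglia markers, on axes in units of 1000 CPM, 1 point a library, constitutive libraries at left and inducible libraries at right, knockouts red and controls blue. The 3 constitutive P0 knockouts and E16 knockout No_1 lie at the lower left, and the 6-week constitutive knockouts have sums of lysosomal genes within or above the control range with fewer marker counts.

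At 2 weeks the calls in constitutive knockouts went both ways. Of 35 genes tested 9 rose and 9 fell, beside 24.4% and 17.8% of the 15017 genes tested, and the median log2 change was -0.090 against 0.002 over all genes. Ctsk was left out by the low-count filter. The 36 genes summed to 41523 and 35734 CPM in knockouts No_80 and No_89, against 43939 to 47088 CPM in controls.

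The largest rise was that of Ctsc (chromosome 7, 88278085 to 88310888, plus strand), the dipeptidyl peptidase that activates the granule serine proteases of neutrophils and mast cells. It held 2203 and 2569 CPM in knockouts, against 569.5, 519, 606 and 632 CPM in controls, a 4.12-fold higher level (log2 change 2.04 ± 0.14, adjusted p = 7.96e-06). Both knockouts stood far above all controls. Cd63 (chromosome 10, 128900989 to 128912822, plus strand) held 358 and 265 CPM in knockouts, against 115, 103, 120.4 and 104 CPM in controls (log2 change 1.48 ± 0.12, adjusted p = 2.4e-05). Gla held 17 and 12.9 CPM in knockouts, against 5.69, 3.91, 5.4 and 6.5 CPM in controls (log2 change 1.46 ± 0.25, adjusted p = 0.00137). Sgsh held 16 and 18.3 CPM in knockouts, against 6.81, 8.86, 5.27 and 5.2 CPM in controls (log2 change 1.39 ± 0.27, adjusted p = 0.00242). Neither knockout overlapped the controls for these 3 genes. Of the 7 glycosidases 4 rose and 0 fell: beside Gla these were Glb1 (0.99 ± 0.14), Neu1 (0.55 ± 0.14) and Gusb (0.45 ± 0.10). Ctsh (0.65 ± 0.15) and Ctsz, a carboxypeptidase (0.34 ± 0.12), rose as well. The call of Ctsz was lost without knockout No_80 or control No_77, No_78 or No_83 (adjusted p 0.0635 to 0.14), and that of Neu1 without knockout No_89 (0.0532).

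Ctsf and Ctsl fell most. Ctsf held 226 and 148 CPM in knockouts, against 538, 649, 579.7 and 602 CPM in controls (log2 change -1.68 ± 0.15, adjusted p = 4.08e-05). Ctsl, a broad endopeptidase, held 873 and 306 CPM in knockouts, against 2077, 1366, 2278 and 1414 CPM in controls (log2 change -1.65 ± 0.44, adjusted p = 0.026). Both knockouts were below the controls, but they differed widely for Ctsl. Without the library labelled knockout No_89 its log2 change was -1.13 and no longer passed (adjusted p = 0.111), and without knockout No_80 it was -2.45. Gpr137b held 29.1 and 25.3 CPM in knockouts, against 47.7, 54.9, 55 and 50.2 CPM in controls (log2 change -0.94 ± 0.14, adjusted p = 0.000677). Lgmn held 3500.0 and 2065 CPM in knockouts, against 5108, 5104, 5374 and 5373 CPM in controls (log2 change -0.94 ± 0.16, adjusted p = 0.00137). Both genes were lower in each knockout. Arsb (-0.90 ± 0.17), Ctsd (-0.75 ± 0.12), Laptm5 (-0.74 ± 0.11), Ids (-0.74 ± 0.15) and Tpp1 (-0.60 ± 0.12) fell too. Of the lipid-degrading members 0 of 5 were called, with log2 changes of -0.18 to 0.19. Without knockout No_89, 8 of the 36 genes rose and 9 fell, and without knockout No_80, 9 rose and 10 fell.

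Markers of other blood cells differed greatly at this age. The 15 neutrophil markers all rose, as did all 12 monocyte markers and 10 of 12 border macrophage markers, while 16 of 17 microglia markers fell. Neutrophil markers summed to 18990 CPM in knockout No_80 and 54411 CPM in knockout No_89, against 121 to 890 CPM in controls, and microglia markers to 32471 and 20944 CPM in the knockouts, against 73579 to 79121 CPM in controls. Their part in the changes of lysosomal genes was not tested.

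**Figure D4:**
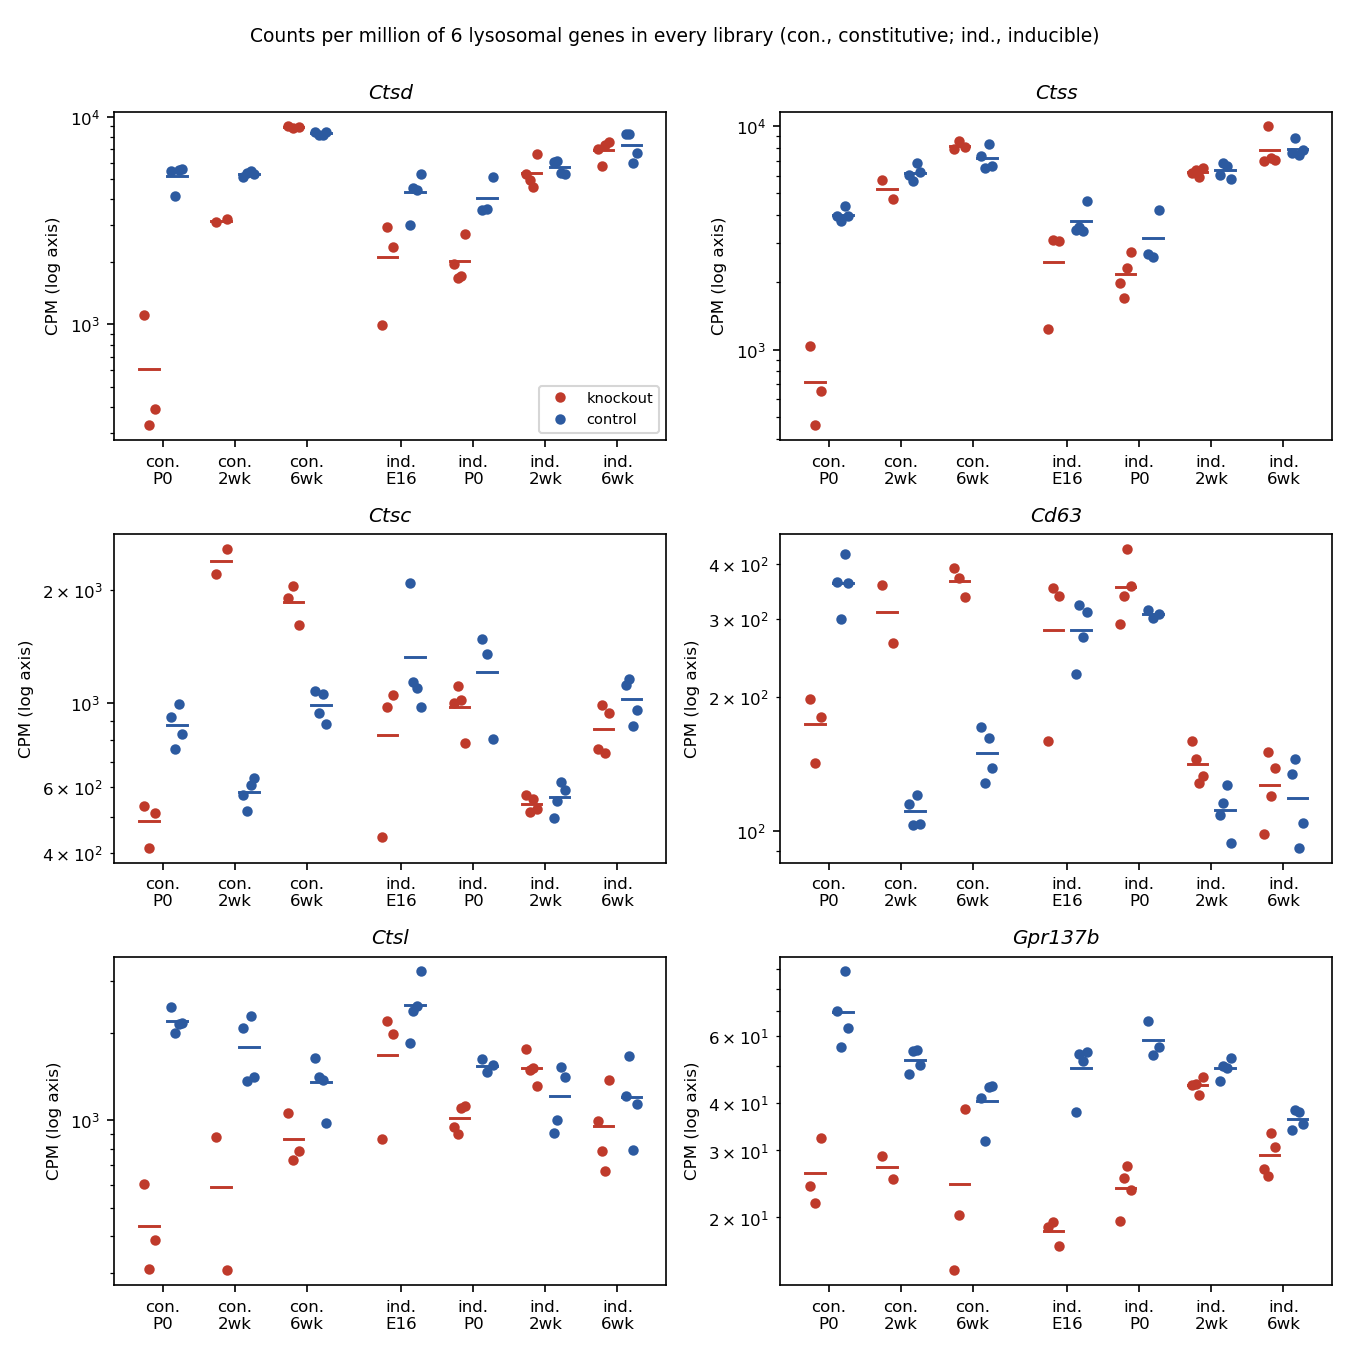
CPM on a log axis of 6 lysosomal genes in every library, knockouts (red) left of their controls (blue), with a line at each group mean. Ctsc and Cd63 lie below the controls in constitutive P0 knockouts and above them at 2 and 6 weeks, and Gpr137b lies below the controls in E16 and P0 inducible knockouts.

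At 6 weeks fewer genes were called in constitutive knockouts. Of the 36 genes 5 rose and 3 fell, beside 6.76% and 5.24% of the 14428 genes tested, with a median log2 change of 0.099 against -0.0073 over all genes. All 8 had been called in the same direction at 2 weeks, in a comparison that shares no library with this one. Over all genes tested at both ages, 85.8% of the genes that rose at 6 weeks and 77% of those that fell had the same call at 2 weeks, which were 24.4% and 21.9% of the 2-week calls.

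Cd63 held 392, 371 and 336 CPM in 6-week knockouts, against 172, 128, 162 and 138 CPM in controls, a 2.36-fold higher level (log2 change 1.24 ± 0.13, adjusted p = 7.31e-05). Sgsh held 28.3, 34.9 and 32.9 CPM in knockouts, against 15.9, 16, 13.5 and 18 CPM in controls (log2 change 0.97 ± 0.15, adjusted p = 0.00139). Ctsc held 1898, 2042 and 1618 CPM in knockouts, against 1078, 945, 1056 and 883 CPM in controls (log2 change 0.85 ± 0.13, adjusted p = 0.00114). Each of the 3 knockouts exceeded each control for all of these genes. Sgsh shares 21.6% of its exon bases with Card14 on the opposite strand. Ctsh held 1539, 1590.3 and 1349.7 CPM in knockouts, against 1087, 896, 907 and 852 CPM in controls (log2 change 0.62 ± 0.13, adjusted p = 0.00694). Glb1 held 173, 138 and 128 CPM in knockouts, against 113, 86.3, 92.4 and 97.7 CPM in controls (log2 change 0.54 ± 0.14, adjusted p = 0.0229), and its call was lost without knockout No_379 or control No_377 or No_400 (adjusted p up to 0.106).

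The falls were smaller. Ctsl held 1058, 734 and 788 CPM in knockouts, against 1642, 1407, 1377 and 977 CPM in controls (log2 change -0.70 ± 0.19, adjusted p = 0.0316), with knockout No_379 above the lowest control. Ids held 58, 58.3 and 82.2 CPM in knockouts, against 103, 85.7, 94.2 and 90.5 CPM in controls (log2 change -0.54 ± 0.15, adjusted p = 0.0303). Ctsf held 327, 255 and 340.3 CPM in knockouts, against 432, 417, 348 and 440.0 CPM in controls (log2 change -0.46 ± 0.13, adjusted p = 0.0427). Ids and Ctsf knockouts were all lower, by a narrow margin. Each of these 3 calls was lost when single libraries were left out: Ctsl without knockout No_380 or No_398 or control No_376, No_377 or No_396 (adjusted p 0.0687 to 0.126), Ids without knockout No_379 or No_380 or control No_376 or No_400 (0.0547 to 0.135), and Ctsf without knockout No_379 or No_380 or control No_376, No_377 or No_400 (0.0753 to 0.153). Gpr137b, at 14.5, 20.3 and 38.6 CPM in knockouts and 41.1, 31.9, 44.1 and 44.4 CPM in controls, was called when knockout No_398 was left out (log2 change -1.26, adjusted p = 0.00207). Without the library labelled knockout No_380, 5 of the 36 genes rose and 0 fell. The 36 genes together held 48798 to 54609 CPM in knockouts, against 46906 to 51174 CPM in controls. Neutrophil markers summed to 2336 to 5221 CPM in knockouts, against 426 to 731 CPM in controls, with 10 of 11 tested up. Border macrophage markers summed to 1817 to 2549 CPM in knockouts, against 523 to 915 CPM in controls, with 6 of 11 tested up, and monocyte markers to 203 to 930.0 CPM, against 52.9 to 151 CPM, with 3 of 11 up. Microglia markers summed to 45422 to 58842 CPM in knockouts, against 68466 to 71827 CPM in controls, with 8 of 17 down. The part of these cells in the changes was not tested.

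The rest of the lysosomal machinery, in lists of other lysosomal genes, was low at P0 in constitutive knockouts too. The counts at P0 stand beside 21.4% of all genes tested that rose and 20.2% that fell. At P0, 27 of 32 other lysosomal hydrolases fell and 0 rose (median log2 change -1.47), among them the phospholipase Pla2g15 (-2.73 ± 0.20), the acid phosphatase Acp2 (-1.74 ± 0.14) and the nuclease Dnase2a (-2.17 ± 0.18). Of 26 other membrane proteins 20 fell and 2 rose, with Cd68, the macrophage sialomucin, at -2.92 ± 0.25 and the cholesterol exporter Npc1 at -1.47 ± 0.12. Of 19 proton pump subunits 14 fell and 1 rose (median -0.63), the macrophage subunit Tcirg1 at -2.20 ± 0.23. Of 24 genes of enzyme tagging and sorting 14 fell and 1 rose, the mannose 6-phosphate receptor M6pr at -1.57 ± 0.23. Of 19 regulators of the lysosome 10 fell and 2 rose, with the transcription factor Mitf at -2.04 ± 0.22 and the mTORC1 subunit Rptor at -1.29 ± 0.14. Of 12 cathepsin inhibitors 7 rose and 4 fell: the stefins Stfa1 (2.62 ± 0.24) and Stfa2 (2.60 ± 0.22), near-identical copies whose reads cannot be split with confidence, rose, and cystatin C (Cst3), a main secreted inhibitor of microglia, fell (-2.21 ± 0.20). The inhibitor list also holds the serpins Serpinb1a, Serpinb6a and Serpinb9, which are neither cystatins nor stefins. Neutrophil markers were high in these knockouts, as given above, and the part of such cells in these lists was not tested.

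At 2 weeks these lists split, beside 24.4% of all genes tested that rose and 17.8% that fell. Of the other hydrolases 11 rose and 9 fell, among them the galactosylceramidase Galc (1.46 ± 0.14) and Acp5, tartrate-resistant acid phosphatase (4.11 ± 0.43), both up. Of the pump subunits 9 of 17 rose and 2 fell, with Atp6v1e1 at 1.24 ± 0.14 and Atp6v0a2 at -1.63 ± 0.14. Of the other membrane proteins 7 of 25 rose and 8 fell, among them Hgsnat, the acetyltransferase of heparan sulfate breakdown (2.36 ± 0.10). Of the sorting genes, the mannose 6-phosphate receptor Igf2r rose by 4.22 ± 0.54 on the log2 scale, and Sort1 fell (-1.10 ± 0.17). How many of the sorting genes and of the regulators were called at this age is not given here. Of the cathepsin inhibitors 9 of 11 rose, stefin B (Cstb) by 1.84 ± 0.13, and Cst3 fell (-2.14 ± 0.18). At 6 weeks, where 6.76% of all genes tested rose and 5.24% fell, 5 of 32 other hydrolases rose and 0 fell, Galc (0.997 ± 0.124), Acp5 (3.23 ± 0.61) and the dipeptidyl peptidase Dpp7 (0.92 ± 0.10) among them, and 4 of 25 other membrane proteins rose and 0 fell, including Gpnmb (3.64 ± 0.94), a glycoprotein of stressed phagocytes. Acp5 and Gpnmb did not pass the low-count filter in either comparison of 6-week with 2-week controls, so their levels in controls were low. Of 18 pump subunits 0 rose and 1 fell (Atp6v0a2, -0.85 ± 0.19), and of 24 sorting genes 1 rose (Gnptab, 0.81 ± 0.18) and 1 fell (Sort1, -1.22 ± 0.12). Of 7 cathepsin inhibitors 2 rose (Cst7, 1.30 ± 0.28, and Serpinb1a, 2.275 ± 0.32) and 1 fell (Cst3, -0.65 ± 0.17), and of 18 regulators 0 rose and 1 fell (Rptor, -0.65 ± 0.13).

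The inducible knockouts showed smaller changes. At E16, 3 days after tamoxifen was given, none of the 36 genes was called, as none of the 17594 genes tested was (0%), though 34 of the 36 log2 changes lay below 0 (median -0.39 against 0.12 over all genes, or -0.30 against 0.24 with library totals). At an unadjusted p below 0.05 edgeR had 2306 genes and 6 of the 36, and DESeq2 called 881 genes and 1 of the 36. That gene was Gpr137b, which held 18.9, 19.4 and 16.8 CPM in knockouts, against 37.8, 53.9, 51.6 and 54.4 CPM in controls (edgeR log2 change -1.53 ± 0.16, adjusted p = 0.0799). All 3 knockouts were below all controls. A single fit over all 14 groups called 10 of the 36, all lower in knockouts (Ctsa, Ctsc, Ctsd, Ctsh, Ctss, Laptm5, Gusb, Psap, Lipa and Gpr137b). The library labelled E16 knockout No_1 stood apart: its 36 genes summed to 17354 CPM, against 42613 and 40571 CPM in the other 2 knockouts and 41242 to 51797 CPM in controls, and its erythroid markers summed to 13362 CPM, against 789.5 and 1065 CPM in the other knockouts and 1179 to 1579 CPM in controls. Its neuron markers summed to 6529 CPM, against 1061 and 679 CPM in the other knockouts and 686 to 2099.8 CPM in controls, and its astrocyte markers to 1819 CPM, against 284 and 239 CPM in the other knockouts and 192 to 499 CPM in controls. The part of these cells was not tested. Without knockout No_1 the median log2 change of the 36 genes was -0.12 against -0.044 over all genes. Of the 36 genes 4 were then called by edgeR, beside 415 rises and 223 falls over the 17973 genes tested. Gpr137b (-1.48), Lipa (-0.70) and Psap (-0.54) were lower and Glb1 (0.76) higher, with adjusted p of 0.00788 to 0.036.

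In newborn inducible knockouts Glb1 rose, and 3 of 12 proteases (Ctsd, Ctsh and Ctsl), 2 of 3 sulfatases (Arsb and Ids), 2 of 5 lipid-degrading members (Psap and Lipa) and Gpr137b fell. In all 1 gene rose and 8 fell, beside 6.81% and 3.56% of the 17573 genes tested (10.4% in either direction), and the median log2 change of the 36 genes was -0.25 against -0.0079 over all genes. Glb1 (chromosome 9, 114401076 to 114474898, plus strand) held 275, 272, 215 and 235 CPM in knockouts, against 128, 148 and 105 CPM in controls (log2 change 0.98 ± 0.16, adjusted p = 0.00326), so that each knockout exceeded each control. Its direction was the opposite of that in constitutive P0 knockouts. Gpr137b (chromosome 13, 13357620 to 13394014, minus strand) held 19.6, 25.3, 27.3 and 23.7 CPM in knockouts, against 65.6, 53.6 and 56.2 CPM in controls (log2 change -1.28 ± 0.18, adjusted p = 0.00209). Ctsd held 1953, 1681, 1703 and 2719 CPM in knockouts, against 3549, 3576 and 5121 CPM in controls (log2 change -0.995 ± 0.21, adjusted p = 0.0136). Both genes were lower in every knockout than in any control. Psap held 1400.0, 1287, 1158 and 1428 CPM in knockouts, against 2369, 2096 and 2665 CPM in controls (log2 change -0.84 ± 0.15, adjusted p = 0.00656). Arsb held 458, 348, 183 and 424 CPM in knockouts, against 711, 599 and 684 CPM in controls (log2 change -0.91 ± 0.25, adjusted p = 0.0452). Both were lower in each knockout than in any control. Ids (-0.82 ± 0.15), Lipa (-0.77 ± 0.14), Ctsh (-0.61 ± 0.14) and Ctsl (-0.59 ± 0.16) fell as well.

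The calls of Arsb, Ctsl and Ctsh were lost when single libraries were left out: Arsb and Ctsl without knockout No_48 or No_49 or any of the 3 controls (adjusted p 0.0506 to 0.12), and Ctsh without knockout No_48 or No_49 or control No_54 or No_55 (0.0525 to 0.0712). Microglia markers fell in 10 of 17 cases, with sums of 19980 to 27817 CPM in knockouts, against 31376 to 37220 CPM in controls, while 0 of 15 neutrophil and 0 of 12 border macrophage markers were called. Border macrophage markers differed widely within groups, at 9294 to 16981 CPM in knockouts and 3940 to 14753 CPM in controls. The 36 genes held 32752 to 40056 CPM in knockouts, against 43633 to 49739 CPM in controls, and were 1.44 to 1.70 times the microglia markers in knockouts and 1.34 to 1.43 times in controls. The marker sum includes Cx3cr1, at 343 to 506 CPM in knockouts and 2540 to 2858 CPM in controls, and no ratio without it was computed. The part of cell composition was not tested. Among the other lysosomal lists, Dpp7 (1.03 ± 0.16), Laptm4b (1.53 ± 0.16) and Gnptg (0.88 ± 0.15), a subunit of the enzyme that tags hydrolases, rose, and Cd68 (-0.92 ± 0.15), Acp2 (-0.84 ± 0.14), Tcirg1 (-1.09 ± 0.21), Rptor (-1.32 ± 0.18) and Mitf (-0.79 ± 0.21) fell. Beside the 6.81% of all genes that rose and 3.56% that fell, the counts were 2 up and 4 down of 32 hydrolases, 3 up and 4 down of 26 membrane proteins, 0 up and 1 down of 19 pump subunits, 4 up and 0 down of 24 sorting genes, 0 up and 4 down of 19 regulators, and 0 up and 0 down of 12 cathepsin inhibitors. Several of these shares lie near those of all genes.

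At later ages 1 gene was called in the inducible model. At 2 weeks Hexa alone was called of the 35 genes tested, beside 1.13% of 13921 genes that fell and 1.11% that rose, 2.25% in all (155 and 158 genes up and down, and 236 and 112 with library totals). It held 818, 677, 572 and 664 CPM in knockouts, against 867, 904, 855 and 923 CPM in controls (log2 change -0.44 ± 0.11, adjusted p = 0.0385). The groups did not overlap, but the call was lost when any one of 7 of the 8 libraries was left out, knockout No_6 being the exception (adjusted p 0.0769 to 0.163). At 6 weeks edgeR called none of the 36 genes, beside 0.0492% of 14217 genes that rose and 0.0141% that fell (0.0633% in all). In this fit 5 of the 36 had an unadjusted p below 0.05, beside 626 of the 14217 genes tested. DESeq2 called 0 of the 36 and 44 over all genes. The log2 changes ran from -0.40 for Psap to 0.12 for Ids, with a median of -0.11 against 0.0078 over all genes. Glb1 held 80.6, 98.1, 90.9 and 93.4 CPM in 6-week knockouts and 79.1, 97, 95.6 and 86.6 CPM in controls. Neutrophil markers summed to 8898 CPM in the library labelled 6-week knockout No_6, against 660.3 to 1172.5 CPM in the other knockouts and 852 to 1229.5 CPM in controls, and their part in these values was not tested.

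The difference between the models was tested directly, as the constitutive minus the inducible knockout effect at an age. At P0 it was below 0 for 27 and above 0 for 2 of the 36 genes, beside 16.9% and 14.0% of 19236 genes, with a median of -1.69 against -0.035 over all genes. Gusb differed by -2.06 ± 0.25, adjusted p = 0.000125, Ctsa by -1.84 ± 0.23, adjusted p = 0.000125, Glb1 by -1.78 ± 0.22, adjusted p = 0.000125 and Ctsh by -1.52 ± 0.18, adjusted p = 0.000116. For Glb1 the knockout effects had opposite signs, -0.84 ± 0.16 in constitutive and 0.98 ± 0.16 in inducible mice. Ids (0.72 ± 0.20) and Ctsk (2.17 ± 0.61) were the 2 above 0, Ids with knockout effects of -0.14 ± 0.14 in constitutive and -0.82 ± 0.15 in inducible mice. The difference was not called for Gpr137b (-0.46 ± 0.28, adjusted p = 0.233), Smpd1 (-0.03 ± 0.21, adjusted p = 0.926) or Sgsh (-0.01 ± 0.46, adjusted p = 0.989), nor for Gaa, Gla, Mcoln1 and Tfeb. Constitutive P0 knockouts held 3229 to 7191 CPM of microglia markers and inducible ones 19980 to 27817 CPM. Their controls held 31063 to 36491 CPM and 31376 to 37220 CPM. The part of cell composition in the model difference was not tested. Scaling by library totals moved the median of all genes by 0.34, split the calls over all genes into 3674 above and 1488 below 0 in place of 2692 and 3254 (3019 and 2452 with DESeq2-type size factors), and left 2 of the 36 genes above and 24 below.

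**Figure D5:**
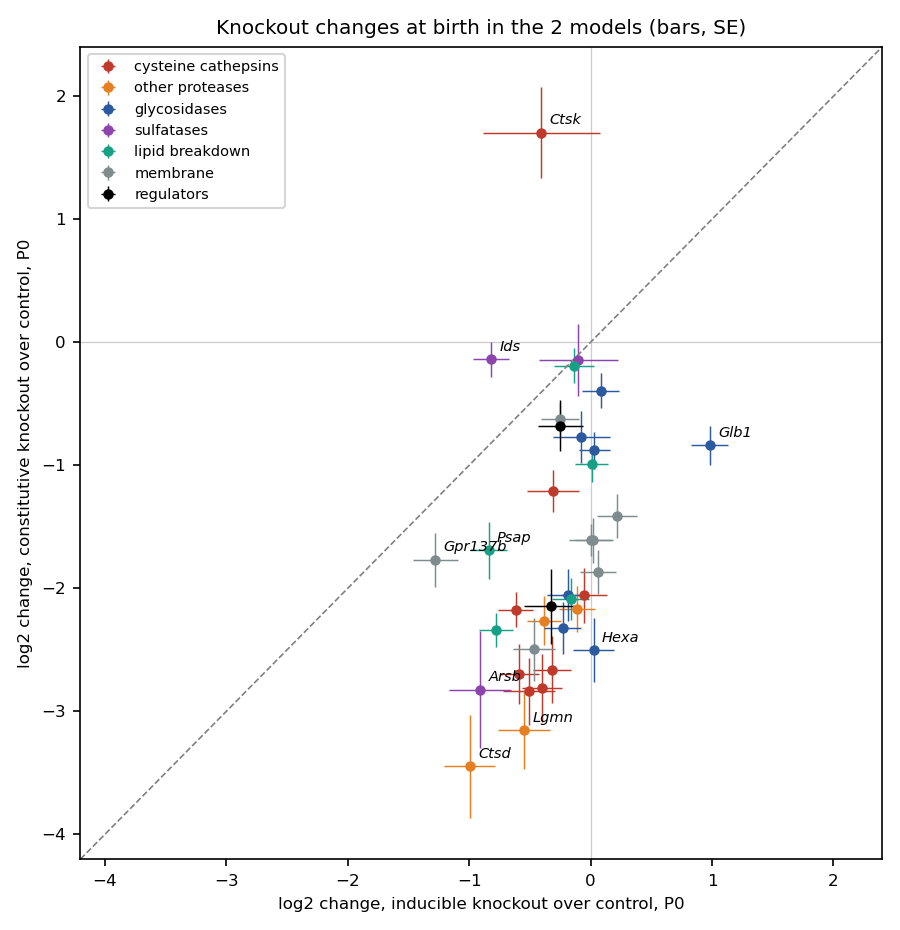
Log2 change at P0 in constitutive knockouts (vertical axis) against that in inducible knockouts (horizontal axis) for the 36 genes, bars giving the SE and colours the role, with a dashed line where both are equal. Most genes lie well below the line near an inducible change of 0, Glb1 stands alone at the right, and Ids and Ctsk lie above the line.

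At 2 weeks 10 of the 36 genes had a difference above and 8 below 0 (16.6% and 14.7% of 15965 genes). Glb1 stood at 1.10 ± 0.18, adjusted p = 0.000181 and Ctsh at 0.79 ± 0.17, adjusted p = 0.00177, above 0, and Lgmn at -1.07 ± 0.17, adjusted p = 0.000109 and Gpr137b at -0.73 ± 0.16, adjusted p = 0.00171, below. Gpr137b held 46.7, 44.5, 44.8 and 42 CPM in inducible knockouts, against 45.8, 50.1, 49.6 and 52.6 CPM in their controls. At 6 weeks 4 genes differed, all above 0, beside 2.54% of 15492 genes above and 2.41% below (4.95% in all): Cd63 (1.19 ± 0.23, adjusted p = 0.00324), Ctsc (1.16 ± 0.19, adjusted p = 0.000768), Sgsh (1.01 ± 0.19, adjusted p = 0.00241) and Ctsh (0.83 ± 0.17, adjusted p = 0.00446). In inducible 6-week mice Cd63 held 150.4, 120.2, 139 and 98.3 CPM in knockouts and 91.8, 104, 134 and 146 CPM in controls, and Ctsc 989.7, 740.4, 942 and 755 CPM in knockouts and 870.4, 962, 1119.8 and 1158 CPM in controls, overlapping in both cases.

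The change of the knockout effect with age was also tested, as the 6-week minus the P0 effect. In the constitutive model it was above 0 for 31 and below 0 for 0 of the 36 genes, beside 14.5% and 5.18% of 19214 genes, with a median of 2.00 against 0.12 over all genes. Ctsl changed by 1.97 ± 0.31, adjusted p = 0.000228, Lamp2 by 1.54 ± 0.23, adjusted p = 0.000119, Glb1 by 1.35 ± 0.21, adjusted p = 0.000183 and Neu1 by 1.28 ± 0.21, adjusted p = 0.000285. Cd63, with a P0 effect of -1.41 ± 0.18 and a 6-week effect of 1.24 ± 0.13, had a difference of 2.62 ± 0.22. With library totals the median of all genes moved by -0.28, the calls over all genes became 1765 above and 1717 below 0 in place of 2780 and 995, and 28 of the 36 genes were above 0 with 1 below. DESeq2-type size factors gave 2015 above and 1357 below over all genes, and the same 28 and 1 in number. The constitutive P0 knockouts in this difference held 3229 to 7191 CPM of microglia markers, against 31063 to 36491 CPM in their controls. At 6 weeks these sums were 45422 to 58842 CPM in knockouts and 68466 to 71827 CPM in controls. The part of cell composition in this change with age was not tested. In the inducible model 3 of the 36 were called, beside 1.53% of 18516 genes above 0 and 1.03% below: Gpr137b (0.98 ± 0.21, adjusted p = 0.0194) and Ids (0.99 ± 0.26, adjusted p = 0.0467) were above 0 and Glb1 (-0.94 ± 0.18, adjusted p = 0.0091) below.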

How the data were processed

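Microglia RNA was sequenced in 50 libraries. Per the submitters' processing notes, CASAVA 1.8.2, STAR 2.5.2b, GRCm38, featureCounts 1.5.1 and limma 3.28.21 were used. The authors deposited raw counts per gene with gene lengths, CPM per the file headers, and a log2 table of 32704 genes that holds 21 of the 36 members and served only as a check. Gene symbols were found for 48058 of 48526 genes, and the other 468, with 0.058% of counts, stayed in library sizes and tests by their identifiers. The members and lists were chosen with earlier results of these data known. edgeR 4.0.16 (R 4.3.3) fitted the counts of the groups compared, with TMM scaling, its low-count filter and the quasi-likelihood test, and p-values were adjusted over all genes tested. The fit was tested on simulated data. Named were the members with the largest called changes (up to 4 per direction and comparison), up to 4 with the smallest adjusted p per difference of effects, and up to 3 genes per other list. Alternatives were DESeq2 1.42.0, other scalings, no filter, a fit over all groups and leaving out libraries. In the annotation used here, 11 of the members share exon bases with another gene and 25 share none.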

Additional observations from a re-analysis of the deposited data

Results flagged for a closer look

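Over 17 of the genes, 153 sets of 4 libraries (1 gene in 1 group) were examined, and 10 held a library far from the others, and chance alone flags about 1 in 20 groups. In inducible E16 control No_2, Ctsc (2085 CPM) and Ctsk (8.40 CPM) stood above and Gpr137b (37.8 CPM) below the other 3 controls. In constitutive P0 control No_70, Ctsd (4131 CPM) and Glb1 (79.4 CPM) stood below the other 3 controls. Ctsk was high in constitutive 6-week control No_376 (1.25 CPM) and low in inducible P0 knockout No_48 (0.867 CPM). Ctss was high in inducible 6-week knockout No_4 (9953 CPM) and in inducible E16 control No_6 (4634 CPM), and Psap was low in constitutive 6-week control No_396 (1466 CPM).

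The tests of the difference between models and between ages passed for the following values on the log2 scale. The P0 knockout effect was lower in the constitutive than in the inducible model for Gusb (-2.06), Ctsa (-1.845), Glb1 (-1.78) and Ctsh (-1.52). At 2 weeks it was lower for Lgmn (-1.07) and Gpr137b (-0.73) and higher for Glb1 (1.10) and Ctsh (0.79), and at 6 weeks it was higher for Cd63 (1.19), Ctsc (1.16), Sgsh (1.01) and Ctsh (0.83). The constitutive knockout effect was higher at 6 weeks than at P0 for Ctsl (1.965), Lamp2 (1.54), Glb1 (1.35) and Neu1 (1.285). The inducible knockout effect at 6 weeks minus that at P0 was above 0 for Ids (0.99) and Gpr137b (0.98) and below 0 for Glb1 (-0.94).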

How the results depend on the processing

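No paired analysis was possible because the groups compared share fewer than 2 library numbers. Of 3035 values of single genes recomputed in knockout comparisons, 2923 kept their side of the threshold, and their direction where called, 75 lost and 37 gained a call, and 0 calls reversed. Values that were not called may change sign among those kept, as Ids, Sgsh and Smpd1 did at constitutive P0 with library totals. The same held for 2087 of 2241 values between control ages and 3351 of 3490 differences of effects. In constitutive controls at 2 weeks against P0, Scarb2 reversed to -0.19 with library totals. At E16 DESeq2 called 881 genes (1 of the 36) and a single fit over all 14 groups 1705 (10 of the 36). DESeq2 and the single fit called 2911 and 2827 genes at inducible P0, and 662 and 131 at 2 weeks, where 888 were called with no low-count filter and the single fit called 0 of the 36. At inducible 6 weeks 25 genes were called without the filter and 44 by DESeq2. For inducible controls at P0 against E16 the counts were 6 with library totals, 56 without the filter, 412 by DESeq2 (1 of the 36) and 94 by the single fit. The single fit called 10 and 7 of the 36 at 6 against 2 weeks in constitutive and inducible controls, 10 for the model difference at 2 weeks, 3893 genes for that at P0, and 799 for the inducible age difference, where DESeq2 called 1136 (5 of the 36). Leaving out single libraries gave 1153 to 1825 genes (5 to 9 of the 36) at constitutive 6 weeks, 0 to 638 (0 to 4) at E16, 680 to 1638 (6 to 10) at inducible P0, 94 to 938 (0 to 2) at 2 weeks and 5 to 18 at 6 weeks. It gave 3 to 126 genes for inducible controls at P0 against E16, 3842 to 6067 for the P0 model difference and 254 to 645 (1 to 4) for the inducible age difference. The cause of these shifts was not tested. Where 2 knockouts left 1 library, that library was assumed to vary like the others. Depth limits Ctsk most, at 0 to 20 counts a library from 2 weeks on.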

Other observations

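Among lysosomal genes outside the 36, 3 that were singled out after their values were seen were called in several knockout comparisons. Rptor, a subunit of mTORC1, fell in constitutive knockouts at P0, 2 weeks and 6 weeks (log2 changes -1.29 ± 0.14, -1.64 ± 0.16 and -0.65 ± 0.13, edgeR adjusted p 5.02e-05, 5.57e-05 and 0.00679) and in inducible knockouts at P0 (-1.32 ± 0.18, adjusted p = 0.0016). In inducible knockouts its log2 changes were -0.88 ± 0.16 at E16, -0.15 ± 0.090 at 2 weeks and 0.018 ± 0.14 at 6 weeks, none of them called. Hgsnat, the lysosomal membrane acetyltransferase of heparan sulfate breakdown, rose in constitutive knockouts at 2 and 6 weeks (2.36 ± 0.10 and 0.96 ± 0.25, adjusted p 7.7e-07 and 0.0366) and in inducible knockouts at 2 weeks (0.54 ± 0.098, adjusted p = 0.00854). At P0 its log2 change was -0.15 ± 0.16 in constitutive and 1.09 ± 0.56 in inducible knockouts, called in neither. In inducible knockouts at 6 weeks it was 0.033 ± 0.10 and not called. Cst3, a cathepsin inhibitor, fell in constitutive knockouts at all 3 ages (-2.21 ± 0.20, -2.14 ± 0.18 and -0.65 ± 0.17, adjusted p 2.35e-05, 2.58e-05 and 0.0292) and was called at none of the 4 ages of the inducible model, where its log2 changes ran from -0.74 at E16 to 0.039 at 6 weeks.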
